A study of Homo sapiens with 32 samples.

Results

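The response of endometrial cancer cells to SM08502, an inhibitor of the CDC-like kinases (CLKs), was measured as 1 effect shared by 4 cell lines. All 32 RNA-sequencing libraries of the study entered the comparison: the 16 libraries that had received SM08502, alone or with paclitaxel, were set against the 16 that had not, on vehicle or on paclitaxel alone. Each cell line with or without paclitaxel formed a block, so that SM08502 was compared within 8 blocks of 4 libraries. The labels give Ishikawa as wild type for CTNNB1, the gene of beta-catenin, and Ishikawa-S33Y, SNGM and HEC265 as mutated for it. All cells, controls included, were exposed for 24 h, to DMSO vehicle, paclitaxel, SM08502 or both drugs. SM08502 was given at 80 nM to Ishikawa, 85 nM to Ishikawa-S33Y, 350.7 nM to SNGM and 149 nM to HEC265. Paclitaxel was given at 11, 6, 11.7 and 5.6 nM in the same order. Each dose was the one that lowered viability of that line by 50%, so line and dose cannot be told apart. Input was 350 ng of RNA for Ishikawa and 500 ng for the other lines. Cells were plated in duplicate, and nothing states that duplicates were separate cultures, so the spread between duplicates may be technical. The p-values of the shared effect also take in differences of that effect between blocks, which stay in the residual spread. Those for differences between lines or by paclitaxel rest on the spread between duplicates.

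CLK1, CLK2, CLK3 and CLK4 are dual-specificity kinases of the nucleus. They phosphorylate serine and arginine-rich (SR) proteins, which then leave nuclear speckles and help the spliceosome to choose exons. CLK inhibitors have been studied in tumours with active Wnt signalling, in which LRP5 and LRP6 act as co-receptors at the cell surface and beta-catenin carries the signal to TCF factors in the nucleus. Paclitaxel stabilises microtubules.

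Levels are given as CPM, the share of a library's counted reads scaled to 1000000, and differences as log2 changes of CPM + 1 between libraries with and without SM08502, with their standard error (SE). A gene was called when limma's moderated test gave an adjusted p under 0.05 over all 17011 genes tested, which were those above 1 CPM in at least 2 libraries of 35238 in the table. Depth was 13.0 to 34.1 M reads (M for 1000000) in 30 libraries. Far shallower were 2 combination libraries of the SM08502 arm, both replicate 2, with 1.61 M reads for SNGM and 2.99 M for Ishikawa-S33Y. The spread between replicates exceeded counting error throughout (chi-square over its degrees of freedom 2.38 to 96.5 by group). A score of transcript length was set as 50 long genes against 77 genes of ribosomal proteins on the log2 scale. Its means changed by -0.54 to -0.09 with SM08502 in the 8 blocks. In Ishikawa its replicates lay wide apart, at -2.43 and -3.37 on SM08502, -2.93 and -2.47 on vehicle and -1.73 and -3.35 on paclitaxel. Epithelial markers were present in every library, with a summed level of 775 to 3070 CPM (median 2020) without SM08502 and 796 to 2350 CPM (median 1180) with it. Of these markers CDH1, KRT8, KRT18 and CLDN4 fell, EPCAM rose, and KRT19 was at a log2 change of 0.04 (limma, adjusted p = 0.707). The endometrial markers PAX8, SOX17, EMX2, ESR1 and PGR fell and HOXA10 rose, and the 8 markers summed to a median of 478 CPM without SM08502 and 387 CPM with it. Fibroblast markers summed to medians of 38.9 and 21.5 CPM, with LUM and PDGFRB under 1 CPM in every library. COL1A1, at up to 1160 CPM, fell by 0.90 and COL1A2, at up to 4.98 CPM, rose by 0.31, and the other 3 tested were not called. Immune markers summed to 3.01 and 4.28 CPM and endothelial markers to 3.23 and 3.11 CPM. The part of these shifts in the changes below was not tested, and in bulk RNA fewer cells of a type and less RNA per cell cannot be told apart.

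SM08502 was followed by broad and mostly small changes. Of the 17011 genes, 8460 (49.7%) were called, 4952 (29.1%) higher and 3508 (20.6%) lower, and only 49 rises and 66 falls reached 2-fold. The median change of all genes was 0.04. On the recovered whole reads, scaled by trimmed means (TMM) and tested with limma's voom, 4095 genes were higher and 4943 lower. That alternative changed the scaling and the model at once, and TMM scaling was not run without voom, so the part of each was not tested. Other scalings in the main model left 4782 genes higher and 3701 lower after centring on the median. After quantile normalization 4594 were higher and 3929 lower. A stricter count asked that no library with SM08502 overlap one without it in any of the 8 blocks. By it 629 genes (3.7%) were higher and 424 (2.49%) lower. In 22 genes all 16 libraries with SM08502 lay above all 16 without it, whatever the line, and in 16 genes all lay below. CLK1, CLK2 and CLK4 were among the 22, and GPD1L, HYAL3 and VPS36 among the 16.

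All 4 CLK kinases rose, and none overlapped in any block. CLK1 was at 15.1 to 41.5 CPM (median 25.3) in the libraries without SM08502 and at 50.7 to 96.4 CPM (median 62.3) in those with it. The ranges did not overlap over the whole study, and the log2 change was 1.49 (SE 0.06, limma adjusted p = 1.26e-16). CLK4 was at 7.55 to 19.9 CPM (median 11.5) without and 23.3 to 49.8 CPM (median 35.6) with the inhibitor. Its ranges did not overlap either, and it rose by 1.44 (SE 0.07, limma adjusted p = 1.31e-15). CLK3 was at 29.0 to 66.5 CPM (median 42.5) without and 52.9 to 112 CPM (median 80.7) with SM08502. The lines overlapped here, the highest control being a paclitaxel library of Ishikawa, and the change was 0.98 (SE 0.10, limma adjusted p = 4.17e-09). CLK2 had the smallest rise of the 4, from 19.5 to 27.7 CPM (median 24.0) to 30.5 to 37.9 CPM (median 33.3), a change of 0.50 (SE 0.05, limma adjusted p = 2.49e-09). By line, CLK1 rose most in HEC265 (1.72), then in Ishikawa-S33Y (1.60), Ishikawa (1.46) and SNGM (1.18, SE 0.10 each). CLK3 rose by 1.74, 0.87, 0.68 and 0.61 in the same order (SE 0.10 each), with HEC265 apart from the rest, and its changes differed between lines (limma F test, adjusted p = 1.79e-05). The smaller differences between lines passed the test for CLK1 (adjusted p = 0.0213) and missed it for CLK2 (adjusted p = 0.0900) and CLK4 (adjusted p = 0.150). CLK3 overlaps an antisense gene and CLK4 a 7SK pseudogene in RefSeq, and the strand of counting is not given in the sources used here.

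**Figure D1:**
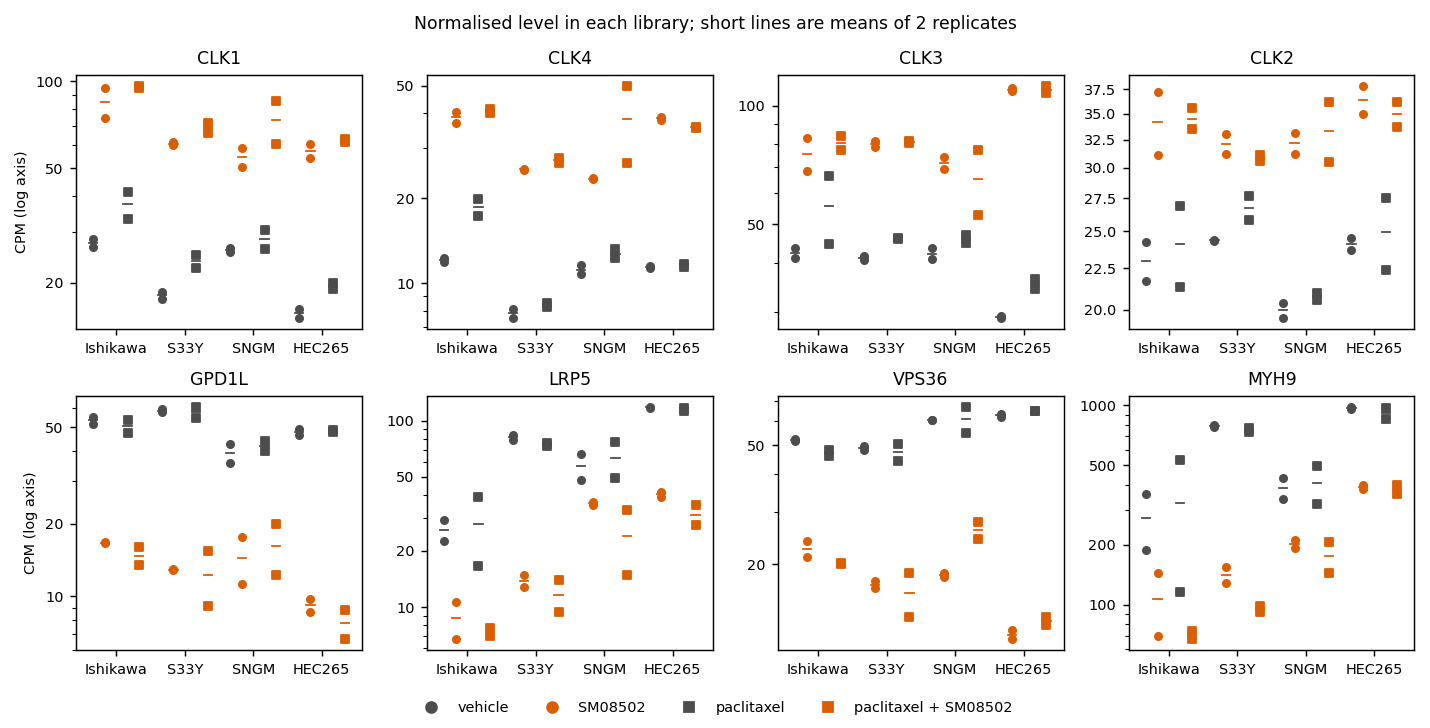
CPM (log axis) of 8 genes in each of the 32 libraries, by line, with circles for libraries without paclitaxel and squares for those with it, grey without and orange with SM08502, and short lines at the mean of 2 replicates. In every block of CLK1, CLK2, CLK3 and CLK4 the orange points lie above the grey ones, and in every block of GPD1L, LRP5, VPS36 and MYH9 they lie below.

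The 250 bases before the annotated start of CLK1, CLK2, CLK4, GPD1L and VPS36 are shown because in these genes no library with SM08502 overlapped one without it. CHMP5, which rose in 8 of 8 blocks, is added for its ETS letters. They are RefSeq sequence of GRCh38.p14, read 5′ to 3′ in the direction of the gene, and capitals mark exact matches on either strand to 6 short motifs. These were a TATA box spelled TATAAA, the box known by its letters CCAAT, a GC box spelled GGGCGG, an E-box spelled CACGTG, a cAMP response element spelled TGACGTCA and an ETS motif spelled CCGGAAG.
CLK1 (chr2:200864659-200864908, minus strand): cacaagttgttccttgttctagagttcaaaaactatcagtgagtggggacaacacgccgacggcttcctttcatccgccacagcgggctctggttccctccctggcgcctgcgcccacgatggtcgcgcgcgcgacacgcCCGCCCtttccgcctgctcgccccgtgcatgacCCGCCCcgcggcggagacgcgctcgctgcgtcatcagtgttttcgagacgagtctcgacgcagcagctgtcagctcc
CLK2 (chr1:155273505-155273754, minus strand): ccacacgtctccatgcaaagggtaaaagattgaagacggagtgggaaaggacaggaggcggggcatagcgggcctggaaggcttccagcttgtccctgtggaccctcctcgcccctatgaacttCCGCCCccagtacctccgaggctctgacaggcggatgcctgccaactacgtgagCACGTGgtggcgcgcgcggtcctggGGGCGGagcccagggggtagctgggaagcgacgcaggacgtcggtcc
CLK4 (chr5:178627051-178627300, minus strand): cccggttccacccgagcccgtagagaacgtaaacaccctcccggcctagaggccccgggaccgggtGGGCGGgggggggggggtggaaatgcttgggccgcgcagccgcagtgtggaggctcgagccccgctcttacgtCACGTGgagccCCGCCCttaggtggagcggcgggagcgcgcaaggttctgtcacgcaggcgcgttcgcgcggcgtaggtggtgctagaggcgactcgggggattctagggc
CHMP5 (chr9:33264799-33265048, plus strand): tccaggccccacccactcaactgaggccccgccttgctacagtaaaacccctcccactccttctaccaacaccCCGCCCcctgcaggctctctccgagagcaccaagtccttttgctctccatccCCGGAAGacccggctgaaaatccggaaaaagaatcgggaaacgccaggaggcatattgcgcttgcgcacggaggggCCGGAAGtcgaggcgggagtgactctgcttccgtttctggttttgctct
GPD1L (chr3:32106370-32106619, plus strand): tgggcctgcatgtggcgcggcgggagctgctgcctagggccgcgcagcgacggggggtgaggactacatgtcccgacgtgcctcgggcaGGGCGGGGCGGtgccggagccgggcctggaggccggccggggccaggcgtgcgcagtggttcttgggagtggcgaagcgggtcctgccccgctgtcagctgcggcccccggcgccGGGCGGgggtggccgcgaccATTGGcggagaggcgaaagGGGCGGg
VPS36 (chr13:52450635-52450884, minus strand): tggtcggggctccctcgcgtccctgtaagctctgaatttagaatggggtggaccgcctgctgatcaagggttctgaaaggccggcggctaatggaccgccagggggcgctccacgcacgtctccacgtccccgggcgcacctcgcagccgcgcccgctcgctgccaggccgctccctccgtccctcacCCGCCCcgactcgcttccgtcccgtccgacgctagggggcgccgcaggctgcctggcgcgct
The CLK1 window held 2 GC boxes, those of CLK2 and CLK4 held 2 GC boxes and 1 E-box each, and GPD1L held 4 GC boxes and 1 CCAAT. VPS36 held 1 GC box, and CHMP5 1 GC box and 2 ETS matches. None of the 6 windows held TATAAA.

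Over all tested genes 12446 had such a window in the RefSeq table. The ETS letters were in 14.2% of them, in 25.3% of the 521 windows of genes that were higher without overlap in 8 blocks, and in 12.6% of the 349 windows of genes that were lower. The cAMP response element was in 2.7%, 3.45% and 3.44% and TATAAA in 6.46%, 4.41% and 3.44%. GC boxes were in 64.1%, 63.3% and 71.1%, E-boxes in 8.41%, 7.87% and 10.6%, and CCAAT in 34.7%, 31.7% and 37.2%. The median GC content was 64.4%, 62.8% and 68.0%. An NRF1 motif, not marked in the windows above and absent from them, was in 1.81%, 3.26% and 2.01%. A match is a description of letters and not of a bound site.

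Among genes with a mean log2(CPM + 1) of at least 2, the 12 largest rises that did not overlap in any block were CCDC150P1, DNHD1, CLK1, NAT6, CLK4, SLC10A5, VDAC1P8, CCDC62, SEC31B, RP11-435I10.4, SAT1 and ANKRD18EP, with log2 changes from 1.10 to 2.58. Below that mean level AP000580.1 (2.03), PYCARD (1.72) and CALML4 (1.51) were higher with no overlap between any libraries, and are named after their values were seen. CCDC150P1, a pseudogene, was at 0.558 to 3.55 CPM (median 2.01) without SM08502 and 3.04 to 43.7 CPM (median 21.3) with it. The ranges overlapped between lines and in no block, and the change was 2.58 (SE 0.22, limma adjusted p = 1.15e-10). It lies at chromosome 12, 122322174 to 122323847 (GRCh38.p14), inside CLIP1, which was at 0.03 (SE 0.09, adjusted p = 0.789). DNHD1, which encodes a dynein heavy chain domain protein, was at 3.20 to 11.6 CPM (median 6.19) without and 11.2 to 31.6 CPM (median 19.0) with SM08502, a rise of 1.50 (SE 0.10, limma adjusted p = 2.56e-12). SAT1, the rate-limiting enzyme of polyamine breakdown, was at 28.8 to 197 CPM (median 79.3) without and 80.8 to 329 CPM (median 197) with it. Its rise of 1.19 (SE 0.09, limma adjusted p = 4.85e-12) was 0.56 in SNGM and 1.19 to 1.62 in the other lines. SLC10A5, of the bile acid transporter family, rose by 1.40 (SE 0.10) from a median of 2.02 to 5.96 CPM, and all 16 libraries with SM08502 lay above the others. SEC31B, a paralog of the COPII coat protein SEC31A, rose by 1.20 (SE 0.09) from a median of 1.45 to 4.88 CPM. CCDC62 rose by 1.23 (SE 0.08), VDAC1P8 by 1.26 (SE 0.06), RP11-435I10.4 by 1.20 (SE 0.15) and ANKRD18EP by 1.10 (SE 0.09). ANKRD18EP overlaps SAYSD1, which itself rose by 0.54 (SE 0.07, limma adjusted p = 8.15e-07), and VDAC1P8 overlaps PEX3, which was at -0.12 (SE 0.09, adjusted p = 0.271). VDAC1P8, ANKRD18EP and CCDC150P1 are annotated as pseudogenes, and reads of a near-identical parent gene may be split with them, so their values are uncertain. RP11-435I10.4 was as low as 0 CPM without SM08502 and had no RefSeq match.

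A pair of overlapping genes moved in opposite directions. HYAL3, a hyaluronidase family gene at chromosome 3, 50292832 to 50299405, had the largest fall of all named genes. It was at 8.56 to 18.3 CPM (median 13.1) without SM08502 and at 0 to 5.23 CPM (median 3.06) with it. The ranges did not overlap and the change was -1.98 (SE 0.15, limma adjusted p = 2.58e-11). Both lowest values, 0 in SNGM and 0.334 CPM in Ishikawa-S33Y, came from the 2 shallow libraries, where 3 reads are 1.87 and 1.00 CPM. NAT6 is listed as NAA80 in RefSeq, the enzyme that acetylates the start of actin, and lies at 50296402 to 50299405, within the span of HYAL3. It was at 1.10 to 4.11 CPM (median 2.29) without and 5.17 to 13.1 CPM (median 7.90) with SM08502, again without overlap, and rose by 1.47 (SE 0.08, limma adjusted p = 2.73e-14). HYAL3 fell by 1.53 to 2.61 in the 4 lines and NAT6 rose by 1.06 to 1.71. Reads in the shared stretch could have been counted to either gene.

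The 12 largest falls by the same rule were those of HYAL3, GPD1L, ITGB5, LRP5, NUP210, MYH9, CELSR1, VPS36, ATP2B4, GABRP, ATAD3A and SULF2. GPD1L, a glycerol-3-phosphate dehydrogenase-like protein, was at 35.5 to 60.5 CPM (median 48.9) without SM08502 and 6.69 to 19.9 CPM (median 12.9) with it. The 2 sets of libraries were 15.5 CPM apart at their closest, and the change was -1.89 (SE 0.10, limma adjusted p = 7.42e-15). VPS36, a subunit of the ESCRT-II complex that sorts ubiquitinated receptors in endosomes, was at 44.2 to 66.9 CPM (median 53.8) without and 11.3 to 27.8 CPM (median 18.4) with SM08502. It too was separate in all 32 libraries, with a change of -1.60 (SE 0.09, limma adjusted p = 4.08e-14), and it fell most in HEC265 (-2.29, SE 0.09) and least in Ishikawa (-1.18). LRP5, the Wnt co-receptor, was at 16.7 to 118 CPM (median 74.9) without and 6.75 to 41.7 CPM (median 14.9) with it. Ishikawa controls lay as low as HEC265 libraries with the inhibitor, yet no block overlapped, and the change was -1.71 (SE 0.15, limma adjusted p = 1.51e-10). LRP5 fell most in Ishikawa-S33Y (-2.54) and least in SNGM (-1.03), with -1.58 in Ishikawa and -1.69 in HEC265 (SE 0.23 each).

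MYH9, the heavy chain of non-muscle myosin IIA, was at 116 to 980 CPM (median 635) without and 67.6 to 400 CPM (median 150) with SM08502. Its change was -1.67 (SE 0.18, limma adjusted p = 1.18e-08), and its replicates were wide apart in Ishikawa, where the paclitaxel library of 116 CPM was the lowest control. NUP210, a membrane protein of the nuclear pore, fell by 1.70 (SE 0.12) from a median of 167 to 48.1 CPM. ITGB5, the beta-5 integrin subunit, fell by 1.72 (SE 0.09) from a median of 55.0 to 13.0 CPM. CELSR1, a cadherin of planar cell polarity, fell by 1.65 (SE 0.11) and ATP2B4, a plasma membrane calcium pump, by 1.56 (SE 0.11). GABRP, a GABA receptor subunit, fell by 1.35 (SE 0.15), ATAD3A, a mitochondrial ATPase, by 1.30 (SE 0.09) and SULF2, a heparan sulfate sulfatase, by 1.27 (SE 0.12). Each of the 24 genes kept its direction and its call under every alternative that was run, the highest adjusted p being 2.88e-05 for GABRP without HEC265. They were chosen for large called changes without overlap in any block, so this was largely fixed by the rule. Just outside the rule, CNTF (1.35), AOC2 (1.24) and ANXA9 (-1.17) were called with 7 of 8 blocks separate, and FOXJ1 (-1.41) and RP11-73M18.2 (-1.20) with 6 blocks wholly lower and 1 wholly higher.

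**Figure D2:**
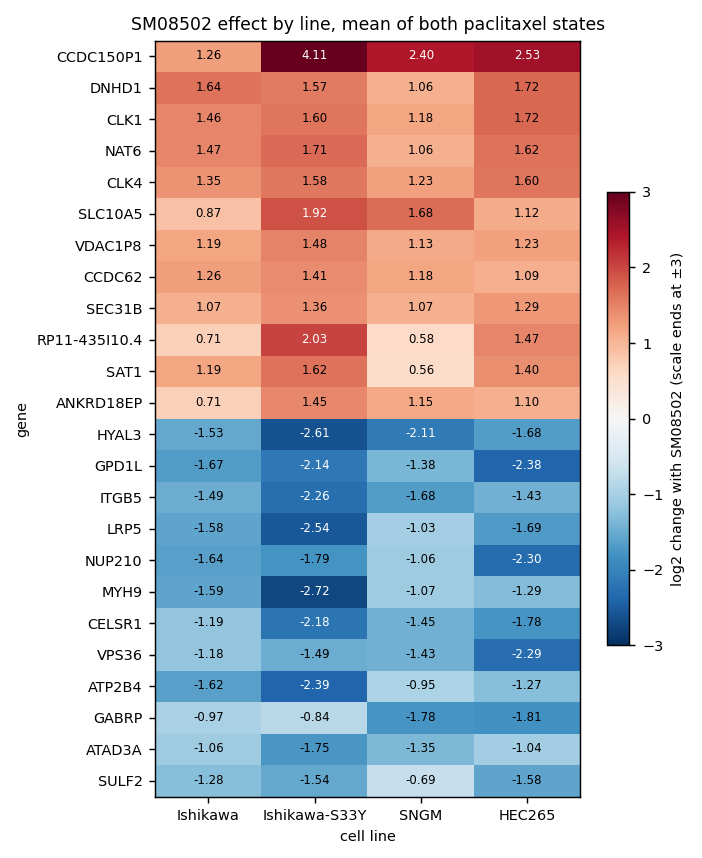
Log2 change with SM08502 in each of the 4 lines (columns) for the 12 largest rises and 12 largest falls (rows), averaged over both paclitaxel states, with red for rises and blue for falls and colours ending at 3 in either direction. All values have the sign of the shared change, which the rule of no overlap in any block required. The widest spread between lines is that of CCDC150P1, from 1.26 in Ishikawa to 4.11 in Ishikawa-S33Y.

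Called changes among the DYRK, HIPK and SRPK kinases were small. Of 11 tested genes 4 were higher and 2 lower (36.4% and 18.2%), with a median of -0.07. Over all genes 29.1% were higher and 20.6% lower, with a median of 0.04. DYRK4 rose by 0.26 (SE 0.07) and SRPK2 by 0.20 (SE 0.06), and HIPK2 fell by 0.45 (SE 0.12) and HIPK1 by 0.19 (SE 0.06). HIPK3 (0.19) and DYRK1A (0.14) were the other rises, named after their values were seen. With voom and TMM the counts were 1 higher and 5 lower, while centring on the median and quantile normalization left them at 4 and 2.

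Core spliceosome genes and SR-related proteins rose more often than they fell under every scaling that was run, and SR proteins fell more often than they rose. Of 36 core spliceosome genes 22 were higher and 4 lower (61.1% and 11.1%, median 0.19), beside 29.1% and 20.6% of all genes. With voom the counts were 15 and 6. PRPF3, of the U4/U6 particle, was at 27.7 to 63.3 CPM (median 31.4) without and 56.9 to 98.9 CPM (median 77.4) with SM08502. Only the edges of these ranges met, between lines, and the rise was 1.09 (SE 0.06, limma adjusted p = 4.57e-15). SF1, which binds the branch point, rose by 0.62 (SE 0.08). PRPF8, the large protein at the centre of the spliceosome, was at 307 to 1220 CPM (median 629) without and 146 to 671 CPM (median 305) with SM08502, and fell by 1.07 (SE 0.12, limma adjusted p = 2.60e-08) without overlap in any block. The other falls were those of SF3B3 (-0.45, SE 0.05) and, named after their values were seen, PRPF6 (-0.43) and PRPF31 (-0.22).

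Of the 12 SR proteins, the substrates of the CLKs, 2 were higher and 4 lower (16.7% and 33.3%, median -0.08). SRSF6 rose by 0.38 (SE 0.05) and SRSF10 by 0.34 (SE 0.05). SRSF2 fell by 0.41 (SE 0.05), from a median of 252 to 199 CPM, SRSF8 by 0.28 (SE 0.06), and, named after their values were seen, SRSF4 by 0.25 and SRSF1 by 0.19. Among 24 SR-related and speckle proteins 13 were higher and 3 lower (54.2% and 12.5%, median 0.20), beside 29.1% and 20.6% of all genes. LUC7L3, of the U1 particle, rose by 0.65 (SE 0.09) and ARGLU1 by 0.52 (SE 0.08), each in 7 of 8 blocks without overlap. THRAP3, a speckle protein, fell by 1.09 (SE 0.14) from a median of 159 to 81.8 CPM, and U2AF2, which binds the polypyrimidine tract, by 0.77 (SE 0.08) from 154 to 81.7 CPM, both in 8 of 8 blocks. TRA2A (-0.20) was the remaining fall, named after its value was seen. THRAP3 fell by 1.65 in Ishikawa and 1.69 in Ishikawa-S33Y and was at -0.34 in SNGM (limma F test between lines, adjusted p = 5.02e-04). Of 27 hnRNP genes 9 were higher and 6 lower (median 0.03), with HNRNPR (0.42, SE 0.06) and HNRNPC (0.30, SE 0.05) rising and HNRNPD (-0.51, SE 0.08) and HNRNPUL2 (-0.48, SE 0.12) falling. The hnRNP shares, 33.3% higher and 22.2% lower, were near those of all genes (29.1% and 20.6%). With voom and TMM the counts were 5 higher and 11 lower, and with quantile normalization 9 and 5.

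Factors of nonsense-mediated decay, which removes transcripts with early stop codons, were higher in 11 of 19 cases (57.9%) and lower in 0 (median 0.17). Of all genes 29.1% were higher and 20.6% lower. RBM8A, of the exon junction complex, was at 76.4 to 143 CPM (median 95.9) without and 128 to 263 CPM (median 149) with SM08502, and rose by 0.69 (SE 0.05, limma adjusted p = 1.56e-11) in 8 of 8 blocks. DHX34 rose by 0.53 (SE 0.07). With voom and TMM 8 were higher and 0 lower, and with the length score as a covariate 16 and 0.

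Kinases and cyclins that act on RNA polymerase II rose as well. Of 16 such genes 10 were higher and 1 lower (62.5% and 6.25%, median 0.27), beside 29.1% and 20.6% of all genes. Every scaling that was run gave 10 or 11 higher and 1 lower. CDK9, the kinase of P-TEFb that releases paused polymerase, was at 21.6 to 48.4 CPM (median 35.6) without and 38.6 to 92.0 CPM (median 67.5) with SM08502. The ranges met between lines and in no block, and the rise was 0.90 (SE 0.07, limma adjusted p = 5.54e-12). CCNT2, a cyclin partner of CDK9, rose by 0.61 (SE 0.06), in Ishikawa-S33Y by 0.98 and in SNGM by 0.29. CDK19, of the Mediator kinase module, fell by 0.23 (SE 0.06).

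Wnt pathway genes were called lower more often than higher in the main fit. Of 30 tested receptors and core components 5 were higher and 10 lower (16.7% and 33.3%, median -0.10), beside 29.1% and 20.6% of all genes. LRP6, the paralog of LRP5, was at 77.7 to 173 CPM (median 98.9) without and 89.4 to 225 CPM (median 103) with SM08502. The groups overlapped in 3 of 8 blocks, and the change was 0.13 (SE 0.05, limma adjusted p = 0.0208), which was 0.04 and not called with voom and TMM. TCF7L2 rose by 0.18 (SE 0.07) and BTRC, of the ligase for beta-catenin, by 0.18 (SE 0.06), and, named after their values were seen, CSNK1A1 by 0.15 and GSK3B by 0.13. TCF7L1 fell by 0.36 (SE 0.13), and was not called with a pseudocount of 0.1, with the length score covariate or without Ishikawa. In HEC265 it reached at most 0.908 CPM and its change was 0.29. The counts depended on the processing: voom and TMM gave 0 higher and 15 lower, and the length score covariate 9 higher and 6 lower, which turns the direction.

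Of 18 feedback targets of the pathway that were tested (20 in the list) 2 were higher and 7 lower (median -0.18). These shares, 11.1% higher and 38.9% lower, stand beside 29.1% and 20.6% of all genes. NOTUM, a secreted Wnt deacylase, fell by 0.59 (SE 0.12) and TCF7 by 0.37 (SE 0.10), and DKK1, a secreted inhibitor, rose by 0.26 (SE 0.10) and CD44 by 0.12 (SE 0.05). Neither rise was called without the 2 shallow libraries. NOTUM was at -1.10 in HEC265, -0.98 in Ishikawa-S33Y, -0.52 in Ishikawa and 0.23 in SNGM (SE 0.13 each). AXIN2, a scaffold of beta-catenin breakdown, was at 5.16 to 145 CPM (median 26.3) without and 3.53 to 133 CPM (median 26.8) with SM08502. The ranges overlapped almost whole between lines, while within blocks the groups were apart in 7 of 8, lower with SM08502 in 5 and higher in 2. The change was -0.19 (SE 0.09, limma adjusted p = 0.0680), from -0.52 in Ishikawa to 0.34 in SNGM (F test between lines, adjusted p = 0.00348). MYC was at -0.14 (SE 0.08, adjusted p = 0.133) and CCND1 at -0.17 (SE 0.09, adjusted p = 0.0982). MYC differed between lines, at -0.71 in Ishikawa and from 0 to 0.11 in the other 3 (SE 0.09 each, limma F test adjusted p = 8.71e-05). With voom and TMM AXIN2 (-0.20), MYC (-0.20) and CCND1 (-0.26) were called lower, as were AXIN2 and CCND1 after centring on the median and AXIN2 after quantile normalization. On 16 group means, where differences between blocks leave the residual spread, AXIN2 and MYC were called lower (limma, adjusted p = 0.0137 and 0.0128). The feedback counts with voom were 0 higher and 13 lower, against 2 and 3 with the length score covariate. Without the 2 shallow libraries they were 0 and 9.

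Among 26 genes of the MAPK pathway and receptor tyrosine kinases 6 were higher and 9 lower (median -0.05), and among the named examples DUSP6 and BRAF rose and the receptors FGFR3 and ERBB2 fell. DUSP6, a phosphatase of ERK, was at 5.98 to 160 CPM (median 68.5) without and 8.65 to 255 CPM (median 127) with SM08502, and rose by 0.68 (SE 0.06, limma adjusted p = 8.39e-10) in 8 of 8 blocks. BRAF rose by 0.51 (SE 0.04) in 8 of 8 blocks. FGFR3 fell by 1.25 (SE 0.11) from a median of 14.9 to 5.36 CPM and ERBB2 by 0.80 (SE 0.08) from 86.7 to 47.4 CPM, both in 8 of 8 blocks. The shares were 23.1% higher and 34.6% lower, beside 29.1% and 20.6% of all genes. With voom and TMM 5 were higher and 15 lower, and with the length score covariate 6 and 6.

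Target genes of p53 were higher in 11 of 20 cases (55%) and lower in 0 (median 0.19), beside 29.1% and 20.6% of all genes. With voom the counts were 10 and 1. FDXR, a mitochondrial reductase, was at 5.73 to 27.0 CPM (median 11.7) without and 8.32 to 42.9 CPM (median 20.1) with SM08502, and rose by 0.68 (SE 0.06, limma adjusted p = 3.75e-10) in 8 of 8 blocks. PLK3 rose by 0.54 (SE 0.09). CDKN1A, the cell cycle inhibitor p21, was at 14.6 to 879 CPM (median 239) without and 14.7 to 1390 CPM (median 382) with it. It rose by 0.35 (SE 0.08, limma adjusted p = 6.61e-04), and the rise lay in SNGM (0.75) and HEC265 (0.60), with -0.01 in Ishikawa and 0.05 in Ishikawa-S33Y (SE 0.09 each, F test between lines adjusted p = 8.29e-05). MCL1, a survival protein of the BCL2 family, was at 127 to 260 CPM (median 184) without and 137 to 271 CPM (median 175) with SM08502, a change of 0.03 (SE 0.05, adjusted p = 0.707).

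Cell cycle genes were called in both directions. Of 30 mitotic genes 5 were higher and 7 lower (16.7% and 23.3%, median -0.08), beside 29.1% and 20.6% of all genes. AURKA fell by 0.29 (SE 0.07) and CCNA2 by 0.32 (SE 0.11), and MAD2L1 rose by 0.34 (SE 0.09) and TTK by 0.32 (SE 0.11). The other rises, named after their values were seen, were NEK2 (0.30), AURKB (0.30) and BUB3 (0.22). Leaving out Ishikawa-S33Y, which also removes 8 libraries, left 0 higher and 16 lower. Calls of single genes ended without other lines too: TTK without Ishikawa, and CCNA2 without SNGM or without HEC265. By line TTK was at 1.09 (Ishikawa-S33Y), 0.55 (Ishikawa), -0.15 (SNGM) and -0.19 (HEC265). CCNA2 was at 0.14, -0.03, -0.89 and -0.48 in the same order. Of 33 DNA replication genes 9 were higher and 8 lower (27.3% and 24.2%, median 0.03), which is near the share of all genes, and with voom and TMM 7 and 13. POLA2, of the primase complex, fell by 0.66 (SE 0.05) and LIG1, the replicative ligase, by 0.65 (SE 0.09). RFC4 of the clamp loader rose by 0.40 (SE 0.06) and GINS3 by 0.39 (SE 0.08).

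Of 63 replication-dependent histone genes tested (89 in the table) 30 were lower, 3 higher and 30 not called (median -0.21), beside 20.6% lower and 29.1% higher over all genes. HIST1H3J fell by 1.03 (SE 0.14) from a median of 24.7 to 15.9 CPM and HIST1H2BF by 0.77 (SE 0.09) from 20.2 to 10.8 CPM, the latter in 8 of 8 blocks. The rises were those of HIST1H4I (0.57, SE 0.09), the pseudogene HIST1H4PS1 (0.32, SE 0.08) and, named after its value was seen, HIST1H2BE (0.22). HIST1H4PS1 had few reads, with medians of 0.146 CPM without and 0.527 CPM with SM08502. Its change ran from 0.22 to 1.48 over the alternatives. Without Ishikawa-S33Y 15 histone genes were lower and 1 higher. Histone transcripts are short, and with the length score as a covariate 45 were lower and 3 higher.

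Genes of hypoxia, cholesterol synthesis and endoplasmic reticulum folding fell more often than they rose under every scaling that was run. Of 22 hypoxia response genes 14 were lower (63.6%) and 0 higher (median -0.35), beside 20.6% lower and 29.1% higher over all genes. PDK1, a pyruvate dehydrogenase kinase, was at 29.5 to 188 CPM (median 51.9) without and 17.5 to 108 CPM (median 27.8) with SM08502. It fell by 0.86 (SE 0.09, limma adjusted p = 1.68e-08) in 8 of 8 blocks. HK2, a hexokinase, fell by 0.69 (SE 0.09). Without Ishikawa-S33Y 7 hypoxia genes were lower and 1 higher. Of 25 cholesterol genes 13 were lower and 2 higher (median -0.19). LSS, lanosterol synthase, fell by 0.69 (SE 0.08), and MVK rose by 0.32 (SE 0.07) and NSDHL by 0.16 (SE 0.06). Of 18 endoplasmic reticulum chaperones 10 were lower and 2 higher (median -0.14). HSP90B1, the HSP90 of this compartment, was at 403 to 1380 CPM (median 903) without and 165 to 746 CPM (median 542) with SM08502, and fell by 0.77 (SE 0.07, limma adjusted p = 6.39e-10). CRELD2 fell by 0.78 (SE 0.08), both in 8 of 8 blocks, and HERPUD1 (0.23, SE 0.05) and DNAJB11 (0.15, SE 0.05) rose.

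Integrated stress response genes were higher in 12 of 26 cases and lower in 4 (46.2% and 15.4%, median 0.18), beside 29.1% and 20.6% of all genes. With voom and TMM the counts were 6 and 4. AARS, the alanyl-tRNA synthetase, rose by 0.48 (SE 0.08) and CHAC1, which degrades glutathione, by 0.49 (SE 0.14). By line AARS was at 1.02 in SNGM and at 0.11 to 0.47 in the others. CHAC1 was at 1.43 in SNGM, 0.73 in Ishikawa-S33Y, 0.09 in Ishikawa and -0.30 in HEC265, and was not called without SNGM. ATF5 fell by 0.57 (SE 0.07) in 8 of 8 blocks and VLDLR by 0.56 (SE 0.10), and, named after their values were seen, SHMT2 fell by 0.40 and SLC7A5 by 0.21.

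Genes of epithelial junctions and of the epithelial to mesenchymal transition were lower in 10 of 23 cases and higher in 1 (median -0.20). These shares, 43.5% lower and 4.35% higher, stand beside 20.6% and 29.1% of all genes. CLDN3, a tight junction claudin, fell by 0.64 (SE 0.07) in 8 of 8 blocks. CDH1, E-cadherin, was at 159 to 574 CPM (median 267) without and 119 to 361 CPM (median 183) with SM08502 and fell by 0.58 (SE 0.09, limma adjusted p = 5.39e-06), with -0.01 in SNGM and -0.91 to -0.71 in the other lines. EPCAM rose by 0.15 (SE 0.04). Of 18 YAP targets 8 were lower and 2 higher (44.4% and 11.1%, median -0.10). AXL, a receptor kinase, fell by 1.14 (SE 0.10) and F3, tissue factor, by 1.12 (SE 0.11), both in 8 of 8 blocks. CTGF rose by 0.84 (SE 0.16) and ANKRD1 by 0.62 (SE 0.13), and in HEC265 both were lower (-0.33 and -0.40, SE 0.11 each).

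Genes of protein turnover and sorting rose more often than they fell. Of 31 proteasome genes 18 were higher and 4 lower (58.1% and 12.9%, median 0.15), beside 29.1% and 20.6% of all genes. With voom and TMM the counts were 11 and 5. PSMD14, the deubiquitinase of the lid, rose by 0.52 (SE 0.06) and PSMD13 by 0.48 (SE 0.05), both in 8 of 8 blocks. PSMD4, a ubiquitin receptor, fell by 0.61 (SE 0.08) in 8 of 8 blocks, PSMC5 by 0.27 (SE 0.05) and, named after their values were seen, PSMD8 by 0.16 and PSMC4 by 0.11. Of 25 ESCRT and sorting genes 14 were higher and 4 lower (median 0.17), although VPS36 had one of the largest falls of all genes. MVB12A of ESCRT-I fell by 0.64 (SE 0.05), CHMP5 of ESCRT-III rose by 0.44 (SE 0.06), both in 8 of 8 blocks, and STAM2 rose by 0.41 (SE 0.06). HGS (-0.19) and CHMP3 (-0.14) were the other falls, named after their values were seen. Of 45 large-subunit ribosomal protein genes 17 were higher and 1 lower (median 0.12). RPL22 rose by 0.61 (SE 0.04) from a median of 177 to 272 CPM and RPL15 by 0.39 (SE 0.05), both in 8 of 8 blocks, and RPL12 fell by 0.15 (SE 0.05). These genes enter the length score, and with that score as a covariate 10 were higher and 10 lower. With voom and TMM 5 were higher and 3 lower.

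**Figure D3:**
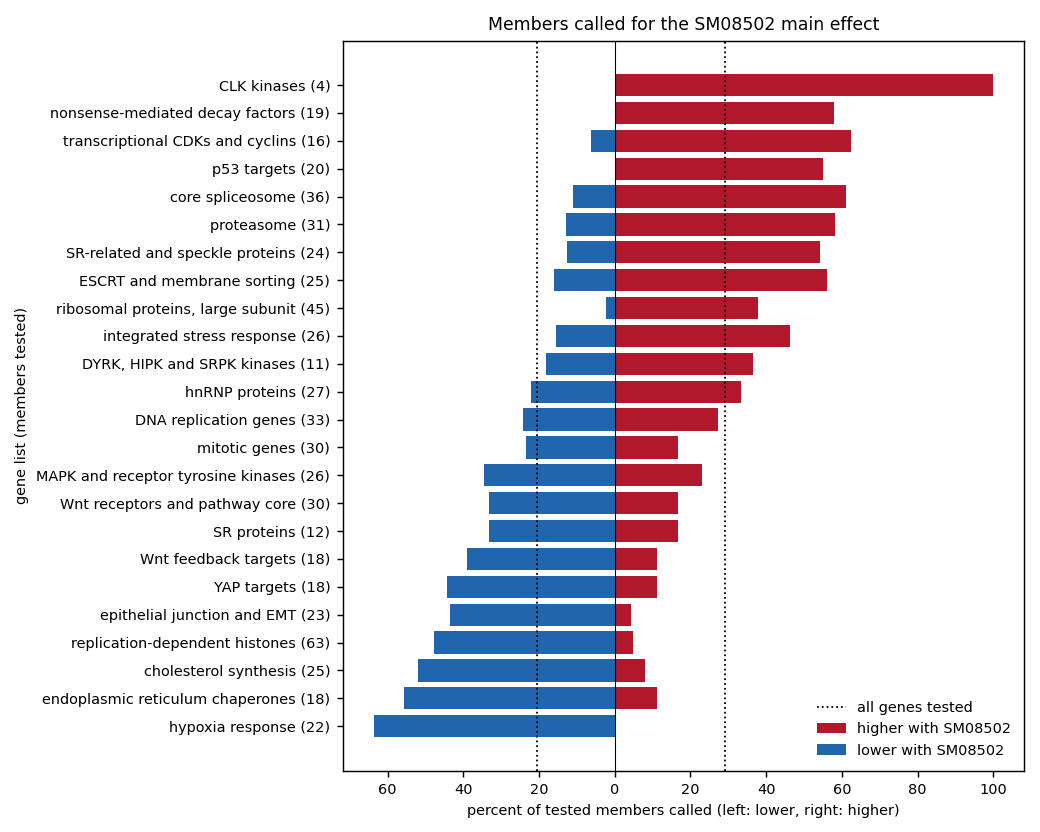
Percent of tested members called higher (red, right) and lower (blue, left) with SM08502 in 24 gene lists, with the number tested in brackets and dotted lines at the share of all genes (29.1% higher, 20.6% lower). CLK kinases stand at the top with 100% higher and hypoxia response at the bottom with 63.6% lower.

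Leaving out a line also removes libraries. It moved 6 of 48 list counts by more than 1.5 times for Ishikawa, 9 for SNGM and 9 for HEC265. Of the 4 lines, Ishikawa-S33Y moved the most. Without that line 17 of 48 list counts moved by more than 1.5 times, among them 8 higher and 3 lower SR-related proteins, 5 and 5 hnRNP proteins, 7 and 3 integrated stress response genes, 2 and 6 endoplasmic reticulum chaperones, 11 and 1 large-subunit ribosomal proteins and 1 and 7 Wnt receptors and core components. Of all named genes, ASNS, CHAC1, DKK1, HIPK1, HIST1H4PS1, LRP6, MAD2L1, MVK, NSDHL, SLC1A3, SRPK2, TCF7L1, TCF7L2 and TTK were not called without it. Leaving out each other line ended calls of named genes too, among them DNAJB11 without Ishikawa, CCNA2 without SNGM and RPL12 without HEC265.

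Long genes were called lower more often and higher less often than shorter ones. The 16157 tested genes with a RefSeq span were divided into 5 equal groups by span, introns included. In the 4 groups up to 92791 bp, 28.7% to 32.9% of genes were higher and 17.4% to 22.5% lower. In the group above it 21.1% were higher and 28.7% lower. The median span was 29.1 kb for all tested genes, 27.1 kb for those higher without overlap in 8 blocks and 46.4 kb for those lower. Among the 24 genes with the largest changes it was 3.04 kb for 11 located rises and 105 kb for 12 falls. Of 828 tested pseudogenes 32.2% were higher and 6.28% lower, against 29.1% and 22.3% of 15243 protein-coding genes. The mean length score was lower with SM08502 in all 8 blocks and moved with these values. Single libraries overlapped in Ishikawa and in SNGM, with and without paclitaxel, and met at -0.98 in HEC265 with paclitaxel. The part of this score was not tested beyond the covariate fit, in which 5213 genes were higher and 2923 lower.

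**Figure D4:**
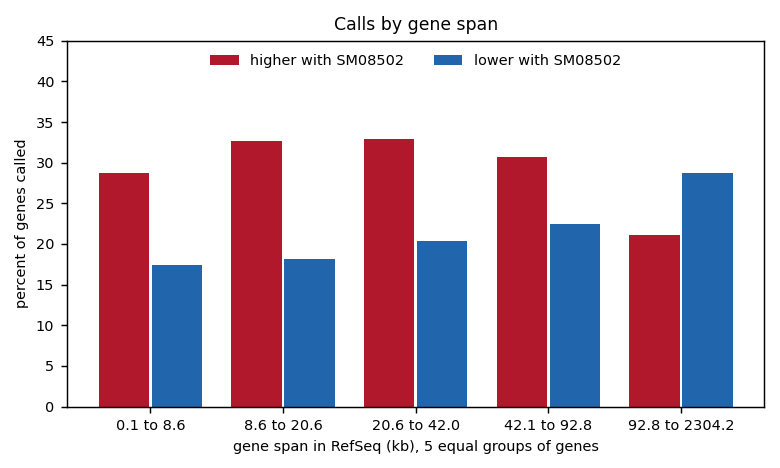
Percent of genes called higher (red) and lower (blue) with SM08502 in 5 equal groups of genes ordered by RefSeq span in kb. The first 4 groups have more rises than falls, and the longest group has 21.1% rises and 28.7% falls.

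The shared effect held both like and unlike responses of the 4 lines. Of the 8460 called genes 5706 had the same sign in each line, and 936 (592 higher, 344 lower) were called in the same direction in each line on its own. The effect differed between lines in 6845 genes (40.2%; limma F test on 3 degrees of freedom, adjusted p under 0.05). Of these, 4076 were also called for the shared effect and 2769 were not, and 919 genes rose by their own test in at least 1 line while they fell in at least 1 other. Ishikawa-S33Y had the most calls, 5050 higher and 3405 lower, with a root mean square change of 0.521. HEC265 had 3017 and 1883 (0.388), Ishikawa 2707 and 2589 (0.371) and SNGM 2066 and 1805 (0.329). All lines shared 1 estimate of the spread, and dose and RNA input differed with the line, so these counts do not rank the lines. Between lines, the correlation of changes over 12118 genes ran from r = 0.391 (Ishikawa-S33Y and SNGM) to r = 0.661 (Ishikawa and Ishikawa-S33Y), a description over genes that share libraries and depth.

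Of the 6 genes named for the smallest p for a difference between lines, ASNS, RPS6KA5, CDCA3 and TXNIP rose in a line and fell in another, and KRTAP3-1 and SLC1A3 rose in some lines only by their own tests. ASNS, asparagine synthetase, rose in SNGM from 77.5 ± 6.27 to 180 ± 27.0 CPM and in Ishikawa-S33Y from 36.6 ± 0.28 to 67.7 ± 0.93 CPM (vehicle and SM08502, SD, n = 2). In HEC265 it went from 174 ± 5.19 to 122 ± 3.96 CPM. By line its changes were 0.28 (Ishikawa), 0.89 (Ishikawa-S33Y), 1.10 (SNGM) and -0.60 (HEC265; SE 0.08 each, limma F test adjusted p = 5.14e-09). RPS6KA5, the kinase MSK1, fell in SNGM (-1.20) from 71.2 ± 1.40 to 29.6 ± 2.20 CPM (SD, n = 2) and rose in Ishikawa-S33Y (0.50, SE 0.06 each, F test adjusted p = 9.18e-10). KRTAP3-1, a keratin-associated protein, rose in HEC265 (2.23) from 11.9 ± 0.73 to 68.4 ± 6.4 CPM (SD, n = 2) and in Ishikawa-S33Y (1.10, SE 0.10 each, F test adjusted p = 1.09e-09), and had 0 reads in all 4 SNGM libraries with the drug. CDCA3, a cell cycle protein, rose by 1.21 in Ishikawa-S33Y and fell by 0.49 in SNGM. TXNIP, which binds thioredoxin, rose by 1.16 in HEC265 and 0.45 in Ishikawa-S33Y and fell by 0.52 in Ishikawa. SLC1A3, a glutamate transporter, rose by 1.66 in Ishikawa-S33Y and was at -0.03 and 0.01 in SNGM and HEC265. It was at 1.11 to 2.02 CPM in SNGM and at 0 to 0.0446 CPM in HEC265, where no fall could be seen.

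No difference between the effect of SM08502 without and with paclitaxel was called. The 16 libraries without paclitaxel and the 16 with it were fitted apart, so that no library was shared. Without paclitaxel 6034 genes (35.5%) were called, 3614 higher and 2420 lower, and with it 4656 (27.4%), 2753 higher and 1903 lower. Both fits called 3922 genes, 65% of the first list and 84.2% of the second, all in the same direction. Across 12118 genes the changes correlated at r = 0.928, a description over genes. The difference between the effects was called in 0 genes (0%) by limma (573, or 3.37%, at an unadjusted p under 0.05; with a smallest adjusted p of 0.998). Voom with TMM also called 0 (646 at an unadjusted p under 0.05). Left with only its shallow replicate of the combination, SNGM moved this count to 265 genes, 82 higher and 183 lower, and Ishikawa-S33Y in the same way moved it to 3.

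CLK1 rose by 1.53 without and 1.45 with paclitaxel, CLK4 by 1.46 and 1.42, CLK3 by 1.10 and 0.86 and CLK2 by 0.54 and 0.46. GPD1L fell by 1.85 and 1.94, LRP5 by 1.53 and 1.89 and HYAL3 by 1.73 and 2.23. Outside the genes of low mean level, this difference had its smallest unadjusted p values in ANKRD10 (0.02 without and 0.38 with paclitaxel) and FLG, filaggrin (-0.51 and -1.16), each with a limma adjusted p of 0.998. A p that misses the threshold does not show that the effects were equal.

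**Figure D5:**
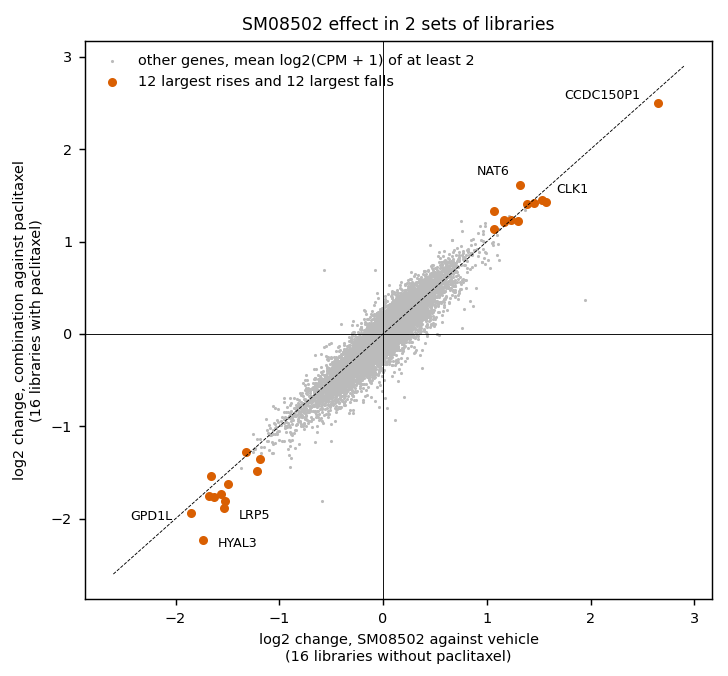
Log2 change with SM08502 in the 16 libraries without paclitaxel (horizontal axis) against that in the 16 with it (vertical axis), for 12118 genes in grey and the 12 largest rises and 12 largest falls in orange, with the line of equal change dashed. The genes follow the line (r = 0.928). All 24 orange genes have the same sign on both axes, which the rule that chose them required.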

How the data were processed

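The 32 libraries of bulk RNA come from 16 groups of 2 replicates, each a line and a treatment. The authors deposited 1 table of log10 values per gene and library, log10(CPM + 1) from the values. The submitters' processing notes name bcl2fastq, kallisto, STAR and GRCh38, without roles, and strand and annotation are not given in the sources used here. Values were turned into CPM, and whole reads were recovered for 100% of them (tolerance 0.01). The main fit was limma 3.58.1 (R 4.3.3) on log2(CPM + 1), with 8 blocks of line by paclitaxel status and SM08502 as terms, an intensity trend, and Benjamini-Hochberg adjustment over 17011 genes above 1 CPM in at least 2 libraries. Differences between lines and by paclitaxel were tested on 16 group means. Scripts were tested on simulated data.

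Named genes were the 12 largest called changes per direction without overlap in any block and with a mean log2 of at least 2, 11 set genes, 6 genes for lines, 2 for paclitaxel, and 2 examples per direction from 24 lists. These genes, the lists and the rules were chosen with earlier results of these data known. Of the tested genes 95.0% matched RefSeq (GRCh38.p14), and 12446 had a promoter entry. Alternatives were other filters, pseudocounts and scalings, voom with TMM on whole reads, group means, a replicate block, the length score, and leaving out each replicate, each line or the 2 shallow libraries. Splicing tables and snoRNA host genes were not analysed here. The values of 1 list example are not reported here. Depth limits low genes: 3 reads were 1.87 CPM in the shallowest library.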

Additional observations from a re-analysis of the deposited data

Results flagged for a closer look

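The effect of SM08502 differed between the 4 lines in 6845 genes by limma's F test on the 16 group means (adjusted p under 0.05). Of the 121 named genes 75 were among them. The values that follow, for those reported here, are the gap between the highest and the lowest of the 4 line changes, in log2 units. Where a gene was nearly absent in a line, its change there is held near 0. In HEC265 SLC1A3 and DKK1 reached at most 0.0446 CPM. FLG reached at most 0.182 CPM in Ishikawa and KRTAP3-1 0.147 CPM in SNGM. TCF7L1 was low in HEC265, at no more than 0.908 CPM, where its change was 0.29.

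Among the largest rises the gap was 2.85 for CCDC150P1, 1.45 for RP11-435I10.4, 1.06 for SAT1, 1.05 for SLC10A5, 0.66 for NAT6 and 0.54 for CLK1. Among the largest falls it was 1.66 for MYH9, 1.51 for LRP5, 1.44 for ATP2B4, 1.25 for NUP210, 1.11 for VPS36, 1.00 for GPD1L, 0.99 for CELSR1, 0.83 for ITGB5 and 0.71 for ATAD3A.

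For 6 more of the 11 set genes it was 1.13 for CLK3, 0.86 for AXIN2, 0.83 for MYC, 0.76 for CDKN1A, 0.66 for CCND1 and 0.45 for MCL1. The genes named for their differences between lines were chosen by this test, and had gaps of 2.34 for KRTAP3-1, 1.70 for RPS6KA5, 1.70 for ASNS, 1.70 for CDCA3, 1.69 for SLC1A3 and 1.68 for TXNIP. The 2 genes named for paclitaxel had gaps of 1.68 for FLG and 1.00 for ANKRD10.

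CTGF and ANKRD1, both YAP targets, fell in HEC265 and rose in the other 3 lines. List examples with a gap of at least 1 had 2.03 for CTGF, 1.76 for ANKRD1, 1.73 for CHAC1, 1.37 for F3, 1.35 for THRAP3, 1.35 for FGFR3, 1.34 for PRPF8, 1.33 for HIST1H3J, 1.32 for NOTUM, 1.28 for TTK, 1.19 for PDK1, 1.14 for DKK1, 1.11 for TCF7L1, 1.08 for AXL, 1.07 for VLDLR and 1.03 for CCNA2.

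The middle gaps of the list examples were 0.97 for LUC7L3, 0.96 for HNRNPD, 0.92 for ARGLU1, 0.91 for AARS, 0.90 for CDH1, 0.87 for LIG1, 0.83 for PSMD4, 0.83 for ERBB2, 0.78 for MVK, 0.77 for GINS3, 0.77 for HIST1H2BF, 0.76 for MAD2L1, 0.73 for CRELD2 and 0.70 for CCNT2. The smallest were 0.67 for CDK9, 0.63 for HNRNPR, 0.62 for ATF5, 0.61 for AURKA, 0.61 for DUSP6, 0.59 for SRSF8, 0.56 for LSS, 0.54 for SRPK2, 0.53 for MVB12A, 0.52 for PRPF3, 0.51 for PSMC5, 0.51 for NSDHL, 0.50 for SRSF6, 0.40 for HNRNPC and 0.39 for RBM8A.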

How the results depend on the processing

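The count of genes called for the shared effect was 8460 and ranged from 6239 without Ishikawa-S33Y to 9496 on 16 group means. Higher genes were 58.5% of calls in the main fit, 45.3% with voom and TMM and 64.1% with the length score. In the fits without and with paclitaxel voom gave 43.3% and 42.6% higher, against 59.9% and 59.1%. Leaving out 1 replicate at a time gave 8030 to 9018 genes for the shared effect, 5698 to 9365 for lines, 0 to 265 for paclitaxel, 5127 to 6616 without paclitaxel and 3620 to 5482 with it. Replicate numbers did not pair the samples (correlations of deviations from -0.59 to 0.85). A replicate block gave 8275, 6842, 0 (566 at an unadjusted p under 0.05), 4343 and 3668 genes in the same order. Of 2054 alternatives for named genes 1963 kept direction and side of the threshold, 61 lost a call, 22 gained one and 8 changed sign. The last were MYC without Ishikawa (0.055), MCL1 with voom (-0.065), without Ishikawa-S33Y (-0.016) and without HEC265 (-0.045), RPS6KA5 without SNGM (0.17), CDCA3 without Ishikawa-S33Y (-0.14), TXNIP without HEC265 (-0.069) and ANKRD10 without Ishikawa-S33Y (-0.028), and the cause was not tested. Of 720 list counts 78 moved by over 1.5 times, 19 of them with voom and TMM and 17 without Ishikawa-S33Y. Without SNGM 9 moved, without HEC265 9 and without Ishikawa 6. Depth limits the 2 shallow libraries, without which 9033 genes were called.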

Other observations

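Lists not described above are given by their counts, beside 29.1% of all genes higher and 20.6% lower. Cleavage and polyadenylation factors, which end transcripts, were higher in 9 of 20 cases and lower in 2 (median 0.12), and homologous recombination and Fanconi genes in 8 and 3 of 30 (median 0.08). Autophagy and lysosome genes were higher in 10 and lower in 6 of 24 (median 0.10), and genes of complex I and ATP synthase in 18 and 10 of 51 (median 0.09). Tubulins and motor proteins, on whose polymer paclitaxel acts, were lower in 8 and higher in 2 of 21 (median -0.12), and steroid and nuclear receptors lower in 7 and higher in 3 of 20 (median -0.16). Small-subunit ribosomal proteins were higher in 8 and lower in 2 of 32 (median 0.10), and heat shock chaperones in 3 and 0 of 18 (median 0.03). Of the 13 mitochondrially encoded genes 0 were called, with a median of -0.20. G1 cyclins and their inhibitors were higher in 5 and lower in 7 of 24, and BCL2 family genes in 4 and 4 of 17. Immediate early genes were higher in 6 and lower in 4 of 20, and interferon-stimulated genes in 5 and 5 of 26. NF-kappaB response genes were higher in 7 and lower in 3 of 20. Endometrial cancer driver genes were higher in 8 and lower in 3 of 26, and chromatin regulators in 6 and 3 of 26.

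In 38 genes the 16 libraries with SM08502 were wholly apart from the 16 without it, and those given here were named after their values were seen. PYCARD, the adaptor of inflammasomes, was at 1.72, MAP3K7, the kinase TAK1, at 0.55 and TRAF6, a ubiquitin ligase upstream of it, at 0.50, all higher. FASTKD5, a mitochondrial RNA-binding protein, was at 0.60. Among the lower genes were UQCRC2 of complex III at -1.23, SUCLG2 of the citric acid cycle at -1.09, SLC25A12, an aspartate and glutamate carrier, at -0.69 and COX11, an assembly factor of cytochrome oxidase, at -0.65. NCSTN, a subunit of gamma-secretase, was at -0.90 and LAP3, an aminopeptidase, at -1.24.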
